A study of Mus musculus with 7 samples.

Results

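The 34 genes described here are immediate early genes and other genes that tissue digestion can induce in brain cells. They were taken from a fixed list of symbols. All 34 were found among the 19505 genes named on the array, and Egr3, the 1 gene with several probe sets, is represented by its brightest set on average. Transcripts were measured in microglia, the resident macrophages of the brain, with 1 expression array per sample. The 4 knockout samples were labelled 5xFAD;B2m-/- and the 3 wildtype samples 5xFAD;B2m+/+, all on the C57BL/6 strain. Every mouse therefore carried the 5xFAD transgenes, which drive amyloid plaque formation, and the genotypes differed at B2m. The B2m product pairs with MHC class I heavy chains at the cell surface, and most CD8+ T cells do not develop without it. The sources used here give no age, sex, litter or digestion protocol, and no sample from undigested brain was compared. The cells were sorted as live and positive for CD45 and CD11b, a gate that other myeloid cells can also pass.

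Immediate early genes are switched on within minutes by growth factors, calcium, cytokines or stress, without new protein synthesis. Kinases of the MAPK pathways activate factors already bound at their promoters, such as SRF at the serum response element (CArG box) and CREB at the cyclic AMP response element (CRE). The first products are transcription factors of the AP-1, EGR, NR4A and KLF families, followed by phosphatases, RNA-decay proteins and signalling inhibitors that end the response. In microglia, enzymatic dissociation and sorting are known to raise many of these transcripts, which is why they are often read as a sign of handling.

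The promoters of Fos, Junb, Nr4a1 and Dusp1 are shown because these genes stand for the AP-1, NR4A and phosphatase groups described below and each carries CRE letters. Each run is the 250 bases before the RefSeq start (GRCm38.p6), written on the gene's strand. Fos lies at chr12:85473640-85473889 (+), Junb at chr8:84978749-84978998 (-), Nr4a1 at chr15:101266596-101266845 (+) and Dusp1 at chr17:26508473-26508722 (-). Capitals mark the short CRE site TGACG on either strand, and in Nr4a1 also 1 EGR site.
Fos: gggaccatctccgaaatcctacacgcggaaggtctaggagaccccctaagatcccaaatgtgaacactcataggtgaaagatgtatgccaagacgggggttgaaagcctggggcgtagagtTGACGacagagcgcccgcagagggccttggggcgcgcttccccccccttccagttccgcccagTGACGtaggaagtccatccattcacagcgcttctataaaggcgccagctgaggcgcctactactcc
Junb: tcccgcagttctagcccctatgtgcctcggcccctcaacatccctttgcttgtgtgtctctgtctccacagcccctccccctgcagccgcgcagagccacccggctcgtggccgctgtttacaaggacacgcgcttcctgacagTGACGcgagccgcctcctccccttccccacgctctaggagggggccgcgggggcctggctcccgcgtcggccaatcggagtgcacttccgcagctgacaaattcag
Nr4a1: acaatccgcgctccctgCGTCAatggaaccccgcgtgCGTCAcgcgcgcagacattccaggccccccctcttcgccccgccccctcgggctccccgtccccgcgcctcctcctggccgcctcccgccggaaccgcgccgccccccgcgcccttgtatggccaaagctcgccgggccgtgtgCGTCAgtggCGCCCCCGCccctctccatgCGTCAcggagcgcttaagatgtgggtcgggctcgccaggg
Dusp1: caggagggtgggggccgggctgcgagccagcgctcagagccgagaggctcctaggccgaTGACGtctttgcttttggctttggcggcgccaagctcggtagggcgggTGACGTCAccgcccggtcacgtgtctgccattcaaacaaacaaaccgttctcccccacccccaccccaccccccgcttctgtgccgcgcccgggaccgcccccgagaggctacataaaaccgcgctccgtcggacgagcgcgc

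Nr4a1 held 4 short CRE sites, Dusp1 3, Fos 2 and Junb 1. Of the 3 in Dusp1, 2 form a full CRE, TGACGTCA, which holds the short site on both strands. Among the 34 genes, 27 were matched by symbol to a promoter table with 36 starts, and 66.7% of these 36 promoters held the short site, against 17.8% of all 32851 promoters of the same length. The full CRE stood in 11.1% of the genes' promoters and 1.55% of all. The EGR site, searched as GCGNGGGCG on both strands, stood in 33.3% and 4.70%. The CArG box stood in 13.9% and 1.47%, and the AP-1 site TGANTCA in 5.56% and 6.75%, again on both strands. Base composition was not matched, and the 5 promoters with a CArG box belonged to 2 genes, Egr2 and Zfp36. A match is only a run of letters in this window.

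B2m (Entrez Gene 12010) checked the labels. It was 10.40, 10.56, 10.47 and 10.24 on the log2 scale in knockout replicates 1 to 4, against 13.42, 13.41 and 13.39 in wildtype replicates 1 to 3 (difference -2.99, SE 0.10, limma adjusted p = 1.54e-07). All values below are the authors' log2 expression after RMA, and all differences are knockout minus wildtype. Across 10004 tested genes, arrays correlated pairwise between 0.946 and 0.98. Microglial markers were bright in all arrays, with P2ry12 between 12.95 and 13.11 in knockout and between 12.89 and 13.09 in wildtype arrays. Some markers of other cells were bright in all arrays too. Endothelial Cldn5 lay between 11.77 and 12.60, and neutrophil Ngp between 12.12 and 13.22. By list median, neutrophil and monocyte markers were highest in knockout replicate 4, and endothelial markers in wildtype replicates 1 and 2. Their values are given below with the genes they bear on.

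The response genes were bright in both genotypes. In all 7 arrays, 27 of the 34 lay above the 95th percentile of the array's negative control rows (9.35 to 9.55), a rough guide to background. Nr4a2, Cebpb, Dusp2 and Socs3 lay below it in every array, and Maff, Egr3 and Nr4a3 above it in only some. All 34 passed the filter on dim genes, Nr4a2 in 5 of 7 arrays and the others in 7. In bulk samples such as these, fewer cells of a type and less RNA per cell cannot be told apart.

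**Figure D1:**
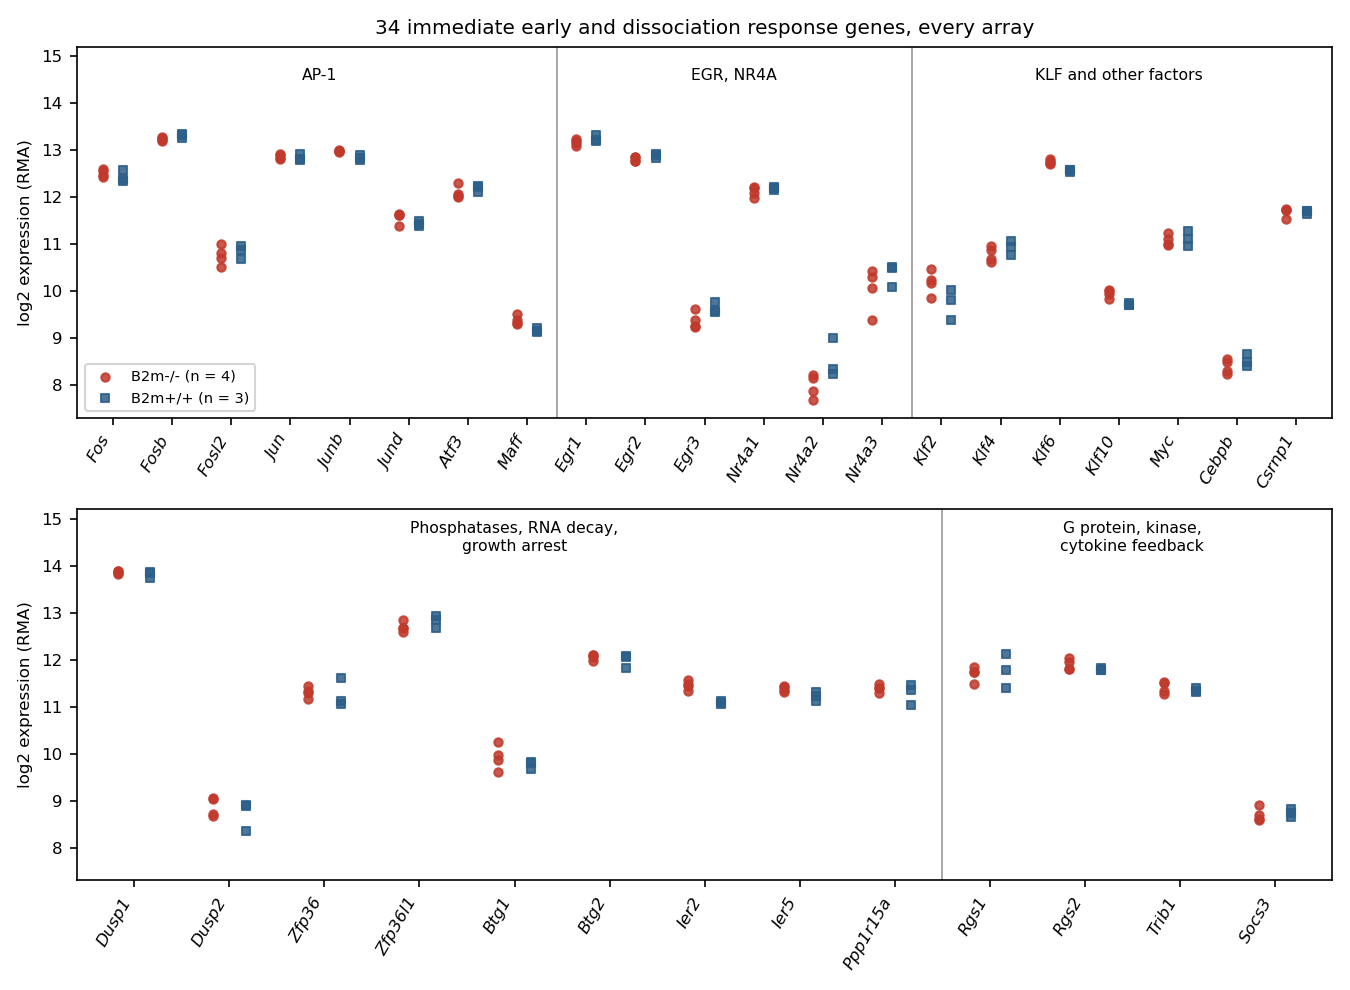
Log2 expression (RMA, y axis) of each of the 34 genes (x axis) in 4 B2m-/- arrays (red circles, left of each tick) and 3 B2m+/+ arrays (blue squares, right), grouped by role. For most genes the points of both genotypes fall in the same narrow band, with a wider scatter for Nr4a2, Nr4a3 and Klf2.

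No response gene passed the threshold. With limma, 0 of 34 were higher and 0 lower at an adjusted p under 0.05, and the lowest adjusted p among the 34 was 0.315. Of all 10004 tested genes, 0.0200% were higher in knockout arrays and 0.0300% lower at that threshold. With B2m and the 50 tested genes on each side of it left out, 0 of 9903 tested genes passed. At an unadjusted p under 0.05 there were 5 of 34 (14.7%), against 11.9% of all tested genes. Of these, Ier2, Klf2, Klf10 and Maff were higher in knockout arrays (8.39% of all genes were) and Nr4a2 was lower (3.54%). That count of 5 depended on which arrays entered the fit. It was 2 without knockout replicate 2 (9.93% of all tested genes in that fit) and 1 without knockout replicate 3 (8.87% of all). It was 2 when wildtype replicate 1 was left out (7% of all), 3 without wildtype replicate 2 (7.95%) and again 2 when wildtype replicate 3 was dropped (13.6%). The share over all genes was thus also below 11.9% in the first 4 of these fits, and above it in the last. The genotypes did not overlap for 6 of 34 genes (17.6%), namely Ier2, Klf6, Klf10, Maff and Junb, higher in knockout, and Nr4a2, lower, against 10.9% of all tested genes (7.10% higher and 3.80% lower).

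The differences were small as well as uncalled. Among the 34 genes, 19 differences lay above 0 and 15 below, with a median of 0.035 and a range from -0.55 to 0.44, beside a median of -0.0055 over all tested genes. The median size of the difference regardless of sign was 0.11, and 0.12 over all tested genes. For 30 of the 34 the 95% confidence interval of the difference stayed within 1.5-fold either way, and for all 34 within 2-fold, where 84.1% and 98.5% of all tested genes did. The 4 genes whose interval reached past 1.5-fold were Nr4a2, Nr4a3, Klf2 and Ier2. The median over the 34 was below 0 when wildtype replicate 2 (-0.023) or wildtype replicate 3 (-0.00065) was left out, without knockout replicates 3 and 4 together (-0.024) and after repeated quantile normalization (-0.013).

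**Figure D2:**
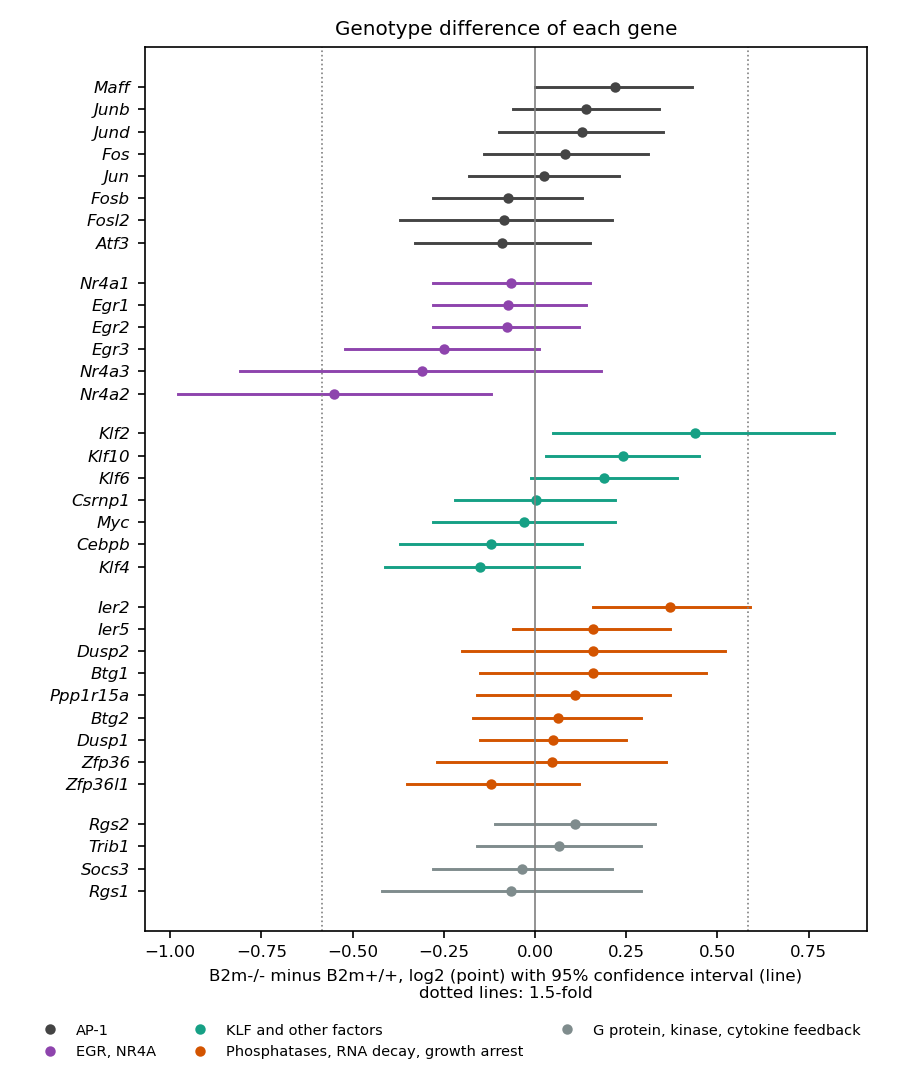
Difference in log2 expression (x axis, B2m-/- minus B2m+/+) for each gene (y axis) with its 95% confidence interval from limma, coloured by role. Dotted lines mark 1.5-fold either way, and 30 of 34 intervals end inside them.

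AP-1 is a dimer of FOS and JUN family proteins that binds DNA through paired leucine zippers. Fos was 12.44, 12.48, 12.60 and 12.56 in knockout replicates 1 to 4, and 12.58, 12.35 and 12.38 in wildtype replicates 1 to 3. Its difference was 0.081 (SE 0.10, 1.06-fold, 95% confidence interval 0.91 to 1.24), and the genotypes overlapped. Jun, its main partner, was even closer, at 12.82, 12.83, 12.90 and 12.92 in knockout and 12.92, 12.82 and 12.79 in wildtype arrays (difference 0.024, SE 0.092, 1.02-fold, interval 0.88 to 1.17).

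Junb, a JUN family member that partners FOS proteins and can oppose JUN, was the steadiest of the 34 between arrays of 1 genotype. It measured 13, 12.99, 12.98 and 12.97 in knockout arrays, against 12.79, 12.84 and 12.90 in wildtype arrays. The knockout arrays all lay higher, by 0.14 on average (SE 0.090, limma adjusted p = 0.552, 1.104-fold, interval 0.96 to 1.27). Maff, a small MAF protein that lacks a transactivation domain, was 9.33, 9.52, 9.30 and 9.40 in knockout arrays and 9.16, 9.13 and 9.22 in wildtype arrays. The knockout arrays were again all higher, by 0.22 (SE 0.097, limma adjusted p = 0.417), and only 1 array exceeded the 95th percentile of negative control rows.

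Atf3, a stress-induced bZIP factor that acts largely as a repressor, was 12, 12.03, 12.07 and 12.30 in knockout and 12.25, 12.11 and 12.22 in wildtype arrays (difference -0.091, SE 0.11). Knockout replicate 4 exceeded every wildtype array while the other 3 knockout arrays lay below them all. Fosb, Fosl2 and Jund, the remaining AP-1 subunits, differed by -0.075, -0.084 and 0.13, with overlapping genotypes. Of the 8 genes in this group, 5 differences lay above 0 and 3 below, with a median of 0.052.

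The zinc finger factors of the EGR family and the orphan nuclear receptors of the NR4A family were the group with the most uniform sign. All 6 differences lay below 0, with a median of -0.17. Each stayed below 0 in every one of the 19 alternative settings that tested it. Nr4a2 did not pass the stricter filter on dim genes and was not tested in that setting. None passed the threshold, and over all tested genes 5138 of 10004 differences lay below 0. Egr1, an early activator used as a general marker of recent stimulation, was 13.19, 13.09, 13.15 and 13.25 in knockout and 13.32, 13.22 and 13.19 in wildtype arrays (difference -0.073, SE 0.094, 0.951-fold, interval 0.82 to 1.1). Egr2 differed by -0.077 (SE 0.091), with knockout arrays from 12.77 to 12.86 and wildtype arrays from 12.84 to 12.93.

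Egr3 was 9.38, 9.25, 9.27 and 9.63 in knockout and 9.58, 9.56 and 9.77 in wildtype arrays (difference -0.25, SE 0.12, limma adjusted p = 0.441). Knockout replicate 4 alone lay among the wildtype values. The gene's other 2 probe sets gave smaller differences of 0.03 and -0.13, so the 3 sets did not share a direction.

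Nr4a1, which restrains inflammatory gene expression in macrophages, was 12.20, 12.09, 11.99 and 12.21 in knockout and 12.19, 12.16 and 12.21 in wildtype arrays (difference -0.066, SE 0.097). Its 2 relatives varied far more between arrays. Nr4a2 (Entrez Gene 18227) was 8.15, 7.87, 7.68 and 8.22 in knockout arrays, against 9.0, 8.35 and 8.24 in wildtype arrays. It had the widest range of the 34 genes, 1.33, and its genotypes were separated only narrowly, by wildtype replicate 3 at 8.24 and knockout replicate 4 at 8.22. The difference was -0.55 (SE 0.19, limma adjusted p = 0.348). All 7 values were dim by the negative control rows, so no fold is given. It was -0.31 without wildtype replicate 1, the highest array, and -0.26 with wildtype replicate 3 as the only wildtype array. Nr4a3 was 10.06, 10.44, 9.40 and 10.30 in knockout and 10.51, 10.09 and 10.49 in wildtype arrays (difference -0.31, SE 0.22), with knockout replicate 3 far below the rest. Without that array the Nr4a3 difference was -0.096.

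**Figure D3:**
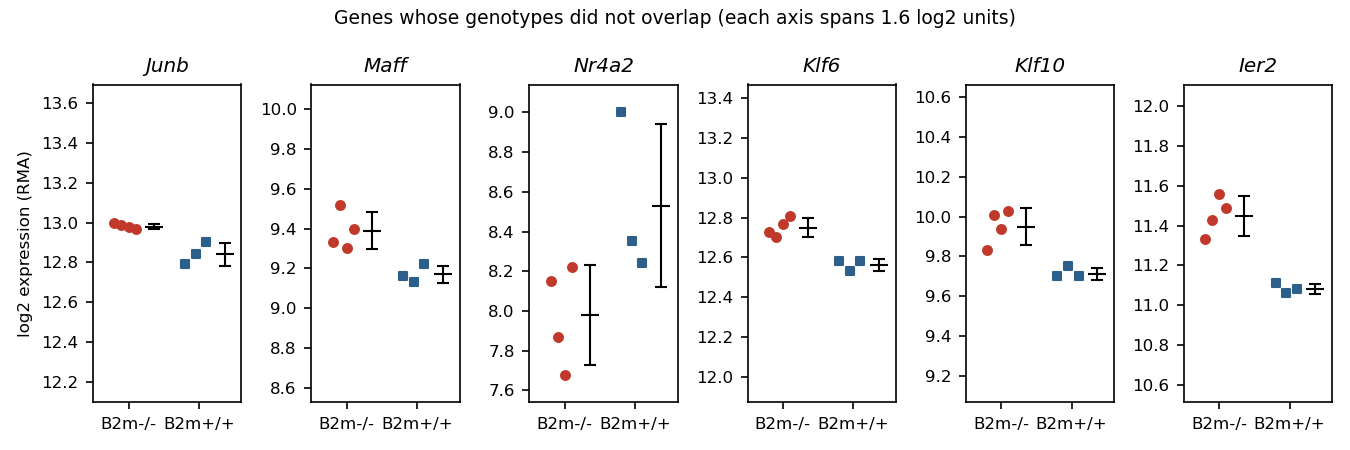
Log2 expression (RMA, y axis) of the 6 genes whose genotypes did not overlap, in 4 B2m-/- arrays (red circles, left) and 3 B2m+/+ arrays (blue squares, right); black bars show the mean and SD. Every panel spans the same 1.6 log2 units, so the small gaps for Junb and Klf6 can be set against the scatter for Nr4a2.

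KLF proteins are zinc finger factors that bind GC-rich promoters. Klf2, which keeps macrophages and endothelial cells quiescent, was 9.86, 10.47, 10.25 and 10.18 in knockout arrays, against 9.82, 10.03 and 9.40 in wildtype arrays. It had the largest positive difference of the 34, 0.44 (SE 0.17, limma adjusted p = 0.383, 1.35-fold, interval 1.04 to 1.77), and the genotypes overlapped because knockout replicate 1 lay below wildtype replicate 2. Wildtype replicate 3 was the lowest array, and the difference was 0.26 without it and 0.78 with it as the only wildtype array. Wildtype replicate 3 was also the array lowest in endothelial and mural markers. Wildtype replicates 1 and 2, the arrays highest in those markers, lay below knockout replicates 2 to 4 for Klf2. The part of endothelial RNA in the Klf2 values was not tested.

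Klf10, a TGF-beta-inducible repressor, was 9.83, 10.01, 9.94 and 10.03 in knockout and 9.70, 9.75 and 9.70 in wildtype arrays. All knockout arrays lay above all wildtype arrays, with a difference of 0.24 (SE 0.096, limma adjusted p = 0.386, 1.18-fold, interval 1.02 to 1.37). Klf6, which promotes inflammatory gene expression in macrophages and was chosen here after its values were seen, was 12.73, 12.70, 12.77 and 12.81 in knockout and 12.58, 12.53 and 12.58 in wildtype arrays. The genotypes did not overlap, although the difference was only 0.19 (SE 0.090, limma adjusted p = 0.440). Klf4, a factor of monocyte differentiation, differed by -0.15 (SE 0.12) with overlap.

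Myc, the growth-promoting bHLH factor, differed by -0.029 and Csrnp1, an AXIN1-inducible nuclear factor, by 0.0018, both with overlap. Cebpb, a bZIP factor of myeloid inflammatory programmes, was 8.31, 8.55, 8.5 and 8.25 in knockout and 8.5, 8.66 and 8.42 in wildtype arrays (difference -0.12, SE 0.11). These values were all dim. Across the 7 genes of the KLF and other factor group, 4 differences lay above 0 and 3 below.

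Ier2, a short-lived nuclear protein of the immediate early class, had the smallest p of the 34 genes. Ier2 (Entrez Gene 15936) was 11.33, 11.43, 11.56 and 11.49 in knockout arrays, against 11.11, 11.06 and 11.08 in wildtype arrays. The means were 11.45 ± 0.10 (SD, n = 4) in knockout and 11.08 ± 0.026 (SD, n = 3) in wildtype arrays. The lowest knockout array lay above the highest wildtype array. The difference was 0.37 (SE 0.097, limma adjusted p = 0.315), or 1.295-fold, and its 95% interval ran from 1.12-fold to 1.5-fold. Its size was between 0.30 and 0.41 over the 19 alternatives, and its adjusted p did not go below 0.188.

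Neutrophil markers differed between the same arrays. The median deviation of 9 neutrophil markers from their gene means was -0.61, -0.0074, 0.53 and 1.269 in knockout replicates 1 to 4, and -0.29, 0.10 and -0.58 in wildtype replicates 1 to 3. Without knockout replicates 3 and 4, the arrays highest in these markers, the Ier2 difference was 0.30. The part of neutrophil RNA in the Ier2 difference was not tested. Ier5, a related protein that modulates the heat shock factor HSF1, was 11.35, 11.32, 11.44 and 11.41 in knockout and 11.12, 11.32 and 11.22 in wildtype arrays (difference 0.16, SE 0.096).

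Dusp1 is the phosphatase that inactivates p38, JNK and ERK kinases in the nucleus and so ends the signal that induces it. It was 13.89, 13.83, 13.89 and 13.84 in knockout and 13.84, 13.87 and 13.73 in wildtype arrays, all within 0.16 of each other (difference 0.049, SE 0.092, 1.03-fold, interval 0.90 to 1.19). Dusp2, a second nuclear phosphatase, was dim and scattered, at 9.04, 9.06, 8.67 and 8.72 in knockout and 8.89, 8.35 and 8.90 in wildtype arrays (difference 0.16, SE 0.16). The Dusp2 difference was -0.024 without wildtype replicate 2.

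Zfp36, which encodes tristetraprolin, directs the decay of cytokine mRNAs with AU-rich ends. It was 11.16, 11.29, 11.33 and 11.43 in knockout and 11.60, 11.06 and 11.11 in wildtype arrays (difference 0.047, SE 0.14). Wildtype replicate 1 was the highest of all 7 arrays and the other 2 wildtype arrays were the lowest. Its relative Zfp36l1 differed by -0.12 (SE 0.11) with overlap.

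Btg1 and Btg2 are antiproliferative proteins that recruit the deadenylase complex. Btg1 was 9.61, 9.87, 9.96 and 10.24 in knockout and 9.80, 9.81 and 9.68 in wildtype arrays (difference 0.16, SE 0.14). Btg1, given in full after its values were seen, rose from knockout replicate 1 to 4, as the neutrophil markers did. Jun, Atf3, Zfp36 and Zfp36l1 had that order too, as did the median over all 34 genes. Without knockout replicates 3 and 4 the Btg1 difference was -0.02. Whether neutrophil RNA contributes was not tested. Btg2 differed by 0.062 and Ppp1r15a, the GADD34 subunit that reverses the integrated stress response, by 0.11, both with overlap. In this group of 9 genes, 8 differences lay above 0 and 1 below, with a median of 0.11. Over all tested genes 4866 of 10004 differences lay above 0. Dusp2, Zfp36, Zfp36l1, Btg1, Btg2 and Ppp1r15a each changed sign in 1 or more of the alternative settings.

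Rgs1 and Rgs2 speed the shutdown of G proteins downstream of chemokine and other receptors. Rgs2 was 11.81, 11.95, 11.81 and 12.04 in knockout and 11.78, 11.77 and 11.83 in wildtype arrays (difference 0.11, SE 0.10). Rgs1 varied more within the wildtype group, at 12.11, 11.39 and 11.78, than within the knockout group, at 11.48 to 11.84, so its difference of -0.066 depended on which wildtype array was left out (0.11 without replicate 1 and -0.25 without replicate 2). Trib1, a pseudokinase that targets C/EBP proteins for degradation, was 11.33, 11.27, 11.52 and 11.51 in knockout and 11.39, 11.33 and 11.30 in wildtype arrays (difference 0.066, SE 0.10). Socs3, the inhibitor of JAK-STAT signalling, was dim in every array and differed by -0.036 (SE 0.11).

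Of the 34 genes, 3 lie on chromosome 2 with B2m. Dusp2 was 25 tested genes from B2m in gene order, Nr4a2 207 and Cebpb 255. None of them passed the threshold.

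Within a genotype, most response genes varied little between arrays. The SD within genotypes had a median of 0.10 over the 34 genes and 0.16 over all tested genes. It was smallest for Junb (0.037), Klf6 (0.043) and Fosb (0.044) and largest for Klf2 (0.28), Nr4a2 (0.33) and Nr4a3 (0.39). Across all tested genes this SD was lower for brighter genes (Spearman's rho -0.18, across genes, which are not independent replicates), and the 34 genes were mostly bright. Whether brightness accounts for their smaller SD was not tested. The arrays' medians over the 34 genes, as deviations from gene means, were -0.046, 0.0066, 0.041 and 0.097 in knockout and 0.040, -0.039 and -0.025 in wildtype replicates. Knockout replicate 4 was the highest and knockout replicate 1 the lowest, so the genotypes overlapped.

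**Figure D4:**
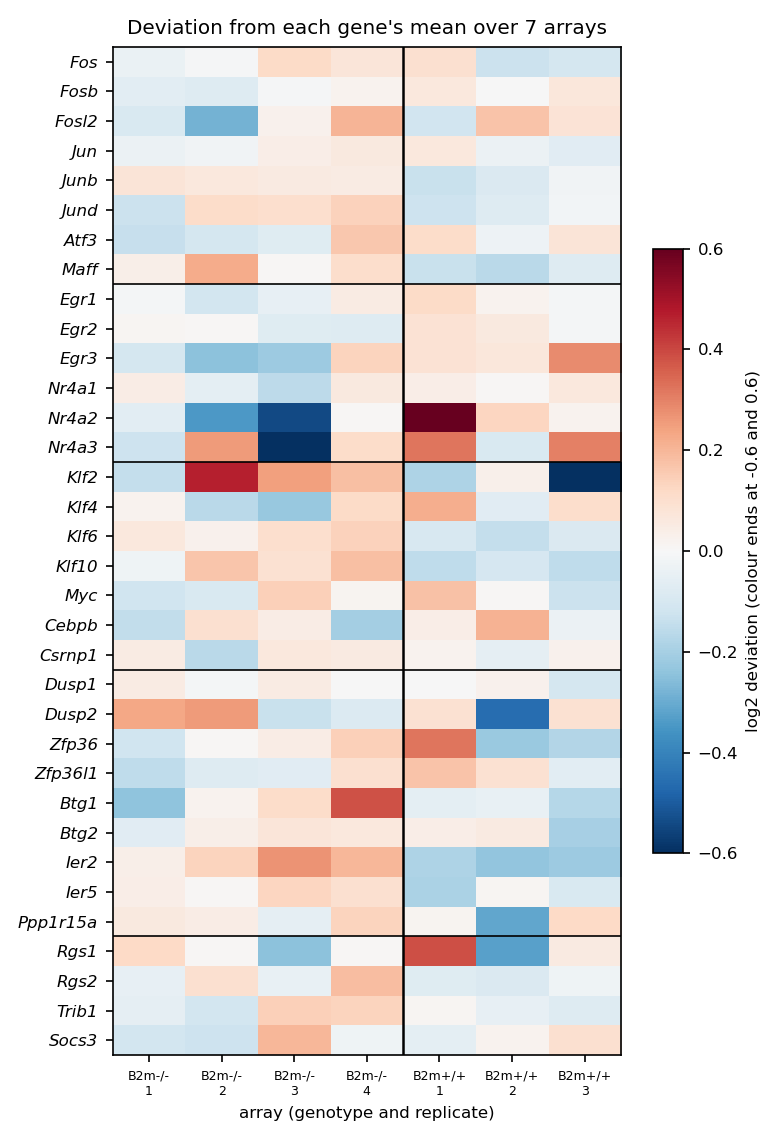
Deviation of each gene (rows, grouped by role) from its own mean over 7 arrays (columns, B2m-/- left of the black line, B2m+/+ right), in log2 units; red is above and blue below the mean. Ier2, Klf6, Klf10, Maff and Junb are red or near white across the B2m-/- columns and blue or near white across the B2m+/+ columns, while Nr4a2, Nr4a3 and Klf2 hold the darkest single cells.

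Correlations among the 34 genes from array to array were mixed in sign, with a median somewhat above that of all tested genes. With genotype means removed, the correlation between 2 response genes over the 7 arrays had a median of 0.17 over 561 pairs, with quartiles of -0.19 and 0.47. Over all pairs of tested genes the median was 0.004, with quartiles of -0.38 and 0.39. The median over response gene pairs was 0.094 after repeated quantile normalization and 0.21 after centring on array medians. These correlations are given as a description, since all arrays share a normalization and only 7 points enter each.

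**Figure D5:**
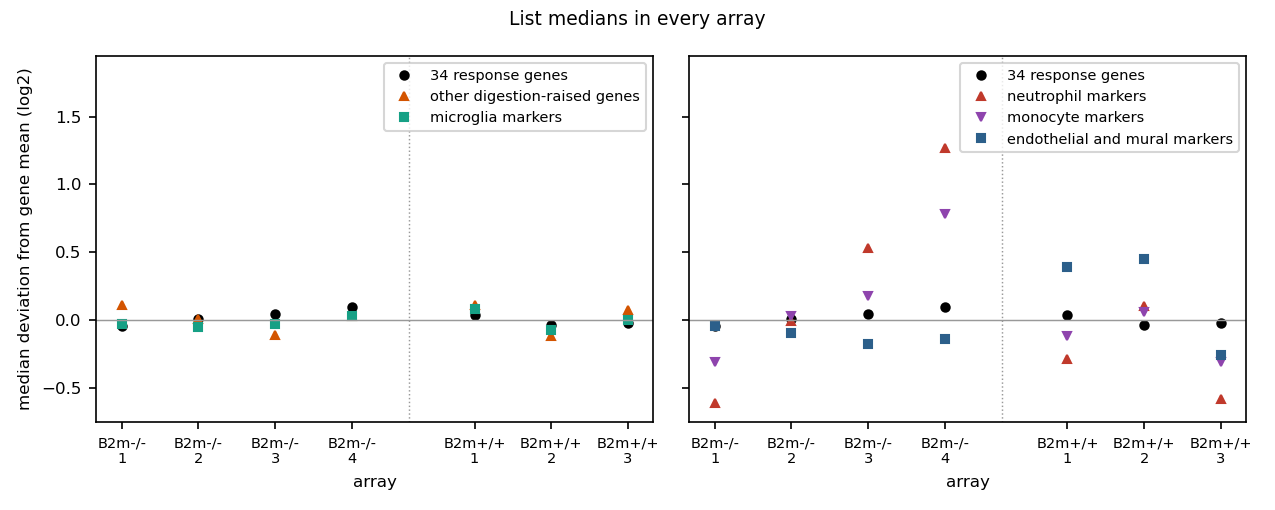
Median deviation from gene means (y axis, log2) in each array (x axis, B2m-/- left of the dotted line, B2m+/+ right) for the 34 response genes, other genes raised by digestion and microglial markers (left panel), and for neutrophil, monocyte and endothelial markers (right panel). The response genes stay between -0.046 and 0.097, while neutrophil markers span -0.61 to 1.269.

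Genes around this response were examined through 4 further lists with 98 tested genes, of which 0 passed the limma threshold. At an unadjusted p under 0.05, 3 of the 98 were higher and 3 lower in knockout arrays, where 11.9% of all tested genes were counted in either direction. Among 23 tested upstream kinases and factors, 0 were counted at that level, with 10 differences above 0 and 13 below. The coactivators Ep300 and Crebbp, acetyltransferases that CREB recruits, differed by -0.30 (SE 0.14) and -0.24 (SE 0.16). The kinases Rps6ka3 and Mapkapk2, which act below ERK and p38, differed by 0.33 (SE 0.23) and 0.16 (SE 0.11), the first at dim values.

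Among 14 other AP-1 partners and bZIP factors, 0 were counted at the unadjusted level. Batf differed by 0.29 (SE 0.13), and Atf6 and Ddit3, factors of the unfolded protein response, by -0.23 and -0.32. Jdp2, a repressor of AP-1, differed by -0.24 with all knockout arrays below all wildtype arrays, at dim values.

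Among 35 tested genes of other early responses, 2 were higher and 2 lower at the unadjusted level. Plk2, a polo-like kinase induced by stimulation, was 10.51, 10.41, 10.66 and 10.50 in knockout arrays, against 11.17, 11.05 and 10.88 in wildtype arrays. The groups did not overlap, and the difference of -0.51 (SE 0.11) was the largest negative one in these lists but did not pass (limma adjusted p = 0.265). Ier3, an NF-kappa-B-responsive survival factor, was 9.56, 9.67, 9.57 and 9.51 in knockout and 9.29, 9.23 and 9.38 in wildtype arrays (difference 0.28, SE 0.095, limma adjusted p = 0.348). Its direction was that of Ier2, but 3 of its 7 arrays lay below the 95th percentile of negative control rows. Klf3 (0.41) and Tob1 (-0.30) were dim in all 7 arrays.

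Among 26 tested stress and cytokine genes that digestion is known to raise, 1 was higher and 1 lower at the unadjusted level, with a median of 0.0070. The heat shock genes Hspa1a and Hspa1b differed by -0.41 (SE 0.14, limma adjusted p = 0.343) and -0.37 (SE 0.17), the second at dim values, and the mitochondrial chaperonin gene Hspe1 by 0.25 (SE 0.14). The chemokine Cxcl2 was 9.81, 9.91, 9.45 and 9.91 in knockout and 9.25, 9.49 and 9.54 in wildtype arrays (difference 0.35, SE 0.14). For Cxcl2, 2 arrays lay below the 95th percentile of negative control rows. The list's array medians were 0.11, 0.0089, -0.11 and 0.026 in knockout and 0.11, -0.12 and 0.070 in wildtype replicates, and the genotypes overlapped.

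Markers of other cells varied between arrays by more than the response genes did. All 9 neutrophil markers had differences above 0, with a median of 0.58 and 0 past the threshold, and their summed linear signal ran from 12504 to 37097 in knockout and from 12790 to 20315 in wildtype arrays. In all 7 arrays, 4 of these 9 markers lay above the 95th percentile of negative control rows. S100a8 was 10.56, 11.31, 11.87 and 12.44 in knockout and 10.16, 11.37 and 10.47 in wildtype arrays. The median deviation of the 7 monocyte markers was also highest in knockout replicate 4, at 0.78. Of these 7, only Fn1 lay above that percentile in all arrays. Fn1 itself was highest in wildtype replicate 2 (10.77, against 10.69 in knockout replicate 4). At an unadjusted limma p under 0.05, 1 of 9 neutrophil and 2 of 6 tested monocyte markers were higher in knockout arrays (8.39% of all tested genes were).

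Endothelial and mural markers had the opposite tendency. All 11 tested had differences below 0, with 0 past the threshold. At an unadjusted limma p under 0.05, 4 of the 11 were lower in knockout arrays, where 3.54% of all tested genes were. The markers' summed signal ran from 11594 to 12688 in knockout and from 10347 to 18016 in wildtype arrays. Their median deviations were -0.047, -0.097, -0.18 and -0.14 in knockout and 0.39, 0.45 and -0.26 in wildtype replicates, and 5 of the 12 measured markers lay above that percentile in all arrays. With wildtype replicate 3 as the only wildtype array the differences were 0.38 for Ier2, 0.17 for Klf6, 0.26 for Klf10, 0.17 for Maff and 0.084 for Junb. Of the markers of T cells, B cells, natural killer cells, dendritic cells, astrocytes, oligodendrocytes and neurons, 0 lay above that percentile in all arrays. Of 8 border-associated macrophage markers, 2 (Mrc1 and Pf4) lay above it in all arrays. The median deviations of these 8 were 0.034, -0.073, -0.0049 and -0.025 in knockout and -0.26, 0.0032 and 0.27 in wildtype replicates. How far RNA of other cells adds to each response gene was not tested.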

How the data were processed

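Per the submitters' processing notes, the authors made the deposited log2 values with RMA in Affymetrix Expression Console 1.1. The table held 28846 rows, with array medians from 7.68 to 7.75, and the annotation gave 19572 rows 1 gene symbol. Symbols were updated by Entrez identifier through a RefSeq gene table (GRCm38.p6), and the array's own build was not given in the sources used here. Samples were grouped by the genotype label. No label says that replicates came from separate animals. The p-values then reflect sample-to-sample spread that may be technical, and precision is limited by how few arrays there are. A gene was tested (10004 were) if it exceeded the median named gene on 3 or more of 7 arrays. The test was limma 3.58.1 (R 4.3.3), checked on simulated data, with calls at a Benjamini-Hochberg adjusted p under 0.05 over all tested genes. The genes, lists and alternatives were chosen with earlier results of these data known. Genes given in full are B2m, 9 usual digestion-response genes, any called gene, the 2 smallest p in each role group, the 3 widest ranges and members on chromosome 2. Of the 4 smallest p of each further list, Plk2, Ier3 and Cxcl2 are given in full and the others by their differences. Klf6 and Btg1 were added after their values were seen. Values of 2 raised to the log2 values were summed for marker lists. Alternatives covered the filter, prior, array weights, normalization, probe sets, arrays left out and the B2m region.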

Additional observations from a re-analysis of the deposited data

Results flagged for a closer look

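In 2 of the 34 genes, 1 of the 4 knockout arrays stood apart from the other 3 by more than Dixon's test at the 95% level allows. Jund, an AP-1 subunit, was 11.38 in knockout replicate 1, against 11.62 to 11.65 in the other knockout arrays and 11.39 to 11.50 in wildtype arrays. Csrnp1 was 11.53 in knockout replicate 2, against 11.74 to 11.75 in the other knockout arrays. Chance sets about 1 in 20 such groups apart.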

How the results depend on the processing

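No paired analysis was possible because the labels give no replicate numbers shared by the genotypes. Over 19 alternatives, 1 of them (without knockout replicates 3 and 4 together) added after seeing the data, 0 response genes passed the threshold, with a lowest adjusted p of 0.185. In 22 of 34 genes the sign never changed. Leaving out 1 array at a time, the count at an unadjusted p under 0.05 ran from 1 to 4 (5 with all arrays) while 7% to 14.7% of all tested genes were counted, the median difference from -0.023 to 0.077, and the differences from -0.024 to 0.25 for Dusp2, from -0.022 to 0.19 for Ppp1r15a and from -0.25 to 0.11 for Rgs1. With wildtype replicate 3 as the 1 wildtype array, whose spread is assumed like that of the knockout arrays, the count was 2 (3.02% of all genes), and Myc (0.12), Csrnp1 (-0.027), Dusp2 (-0.026), Zfp36l1 (0.014) and Ppp1r15a (-0.074) changed sign. Without wildtype replicate 1 and knockout replicate 4 the count was 3 (9.64% of all) and Rgs1 was 0.096. Without knockout replicates 3 and 4 the count was 3 (12.7% of all), the median -0.024, Btg1 -0.02 and Trib1 -0.043. Among related pathway genes the unadjusted count was 6, 10 with an intensity trend alone or joined to a robust prior (12.3% of all in each), and 4 to 10 with 1 array left out. The cause of each change was not tested. Dim values limit Nr4a2, Cebpb, Dusp2 and Socs3.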
